A study of Mus musculus with 6 samples.

Results

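The 50 genes described here encode histone methylation enzymes: lysine methyltransferases, the core of Polycomb repressive complex 2 (PRC2), lysine demethylases and arginine methyltransferases. They were chosen by name, with earlier results of these data known. Every ATAC-seq peak that the table assigned to one of these gene symbols was taken, and the peak with the smallest distance to the annotated transcription start site (the TSS peak) was kept apart from the remaining peaks of the gene (other peaks). Of the 50 genes, 49 had a peak, which gave 79 peaks, 49 TSS peaks and 30 other peaks, of 75412 peaks in the table. Of those 75412 peaks, 35279 carried a gene, and 21400 genes had at least 1 peak. Smyd1, a methyltransferase of heart and skeletal muscle, was the listed gene with no peak to its name.

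ATAC-seq measures open chromatin through the insertion of adapters by the Tn5 transposase. It was done on muscle stem cells (MuSCs) from C57BL/6 mice, freshly isolated, with 3 libraries of control and 3 of Taf4a sKO animals. In Taf4a sKO mice, Cre-ERT expressed from Pax7, and thus in MuSCs, deleted floxed exons of Taf4a after tamoxifen. The study's methods describe the controls as littermates that carry the floxed Taf4a alleles too, with or without Pax7CE, and a Pax7 Zs green reporter in part of the mice of both groups. Those methods describe a sort on integrin alpha 7 or on the reporter, after cells with Sca1, CD45 or CD31 had been depleted, and tamoxifen given to adult mice. Which sort and which control genotype each library came from, and the age of each animal, is not given in the sources used here, nor whether animals were pooled.

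Methylation of histone H3 at lysine 4 marks active promoters, methylation of lysine 36 and lysine 79 marks transcribed gene bodies, and methylation of H3 lysine 9, H3 lysine 27 and H4 lysine 20 is found in silent chromatin. Methyltransferases write these marks with S-adenosylmethionine as the methyl donor, and demethylases of the LSD1 and Jumonji families remove them. In MuSCs, H3K27 and H4K20 methylation by Ezh2 and Kmt5b is known to take part in stem cell maintenance and quiescence.

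The targeted gene was examined first. Taf4, the gene symbol under which the annotation lists Taf4a, had a peak over exon 12, one of the floxed exons (chr2:179922849-179923263, mm10). Its normalized count, the authors' read count after scaling for depth, was 65, 78 and 137 in control replicates 1, 2 and 3 and 44, 22 and 25 in Taf4a sKO replicates 1, 2 and 3. The 3 sKO libraries lay below the 3 control libraries, and the peak fell by 1.58 on the log2 scale (limma, SE 0.30, adjusted p = 0.00034). Peaks of Taf4 outside the deleted exons were read too. An intron peak that reaches exon 7 had 253, 249 and 302 counts in the controls and 140, 145 and 165 in sKO and fell by 0.83 (SE 0.15, adjusted p = 0.00014), and an intron peak beyond exon 12 fell by 0.49 (SE 0.18, adjusted p = 0.027). The TSS peak had a log2 fold change of -0.07 (SE 0.10, adjusted p = 0.59). The fall at Taf4 was thus not limited to the peak over the deleted exon.

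The libraries held 35226223 to 42803315 normalized counts in peaks in the control group and 41661725 to 44311913 in the sKO group. Control replicates 1 and 2 (37722015 and 35226223) lay below the other 4 libraries, and control replicate 3 lay within the sKO range. The 79 peaks of the methylation enzymes took 0.419% to 0.428% of the counts in control libraries and 0.400% to 0.409% in sKO libraries. Over the 75384 peaks tested, the median log2 fold change was 0.11, and over the 21396 TSS peaks tested it was 0.06. Rescaling by trimmed mean of M values (TMM) moved the median of all peaks by -0.12, so changes of this size depend on the scaling, and called changes are also given relative to the median of their class.

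Few TSS peaks of histone methylation enzyme genes passed the test on the deposited scale. Of 49 TSS peaks, 2 rose (those of Ezh1 and Kdm6b), 0 fell and 47 did not pass the test (limma, Benjamini-Hochberg adjusted p under 0.05). At an unadjusted p under 0.05, 3 were higher and 0 lower, and limma voom called 3 higher and 0 lower. Among the TSS peaks of all genes, 17.3% were called higher and 10.1% lower. The median log2 fold change of the 49 TSS peaks was 0.06, the same as over all genes, with 38 values above and 11 below 0 on the deposited scale. Over the 47 uncalled TSS peaks, the lowest bound of a 95% confidence interval was -0.47 and the highest 0.47. The 3 sKO values lay above the 3 control values at 9 of 49 TSS peaks and below at 1, against 24.0% and 15.1% of the TSS peaks of all genes.

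These TSS peaks were broad and strong. Their median normalized count per kilobase of peak was 1727, against 971 over the TSS peaks of protein-coding genes, and their median width was 1434 bp against 1072 bp. Within 1000 bp of the annotated start lay 45 of the 49. The exceptions were Jarid2 (1253 bp), Nsd1 (1991 bp), Kdm6b (3296 bp) and Kdm4c (9607 bp). Compared with protein-coding genes whose TSS peak lay equally close, where 9.91% were called higher and 5.44% lower, 1 of these 45 was higher and 0 were lower. The median GC content of the members' TSS peaks was 66.1%, against 59.7% over protein-coding TSS peaks. GC boxes were read as GGGCGG on either strand. Such a box stood within the 300 bases around the centre in 69.4% of the member TSS peaks and 58.3% of the protein-coding ones.

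**Figure D1:**
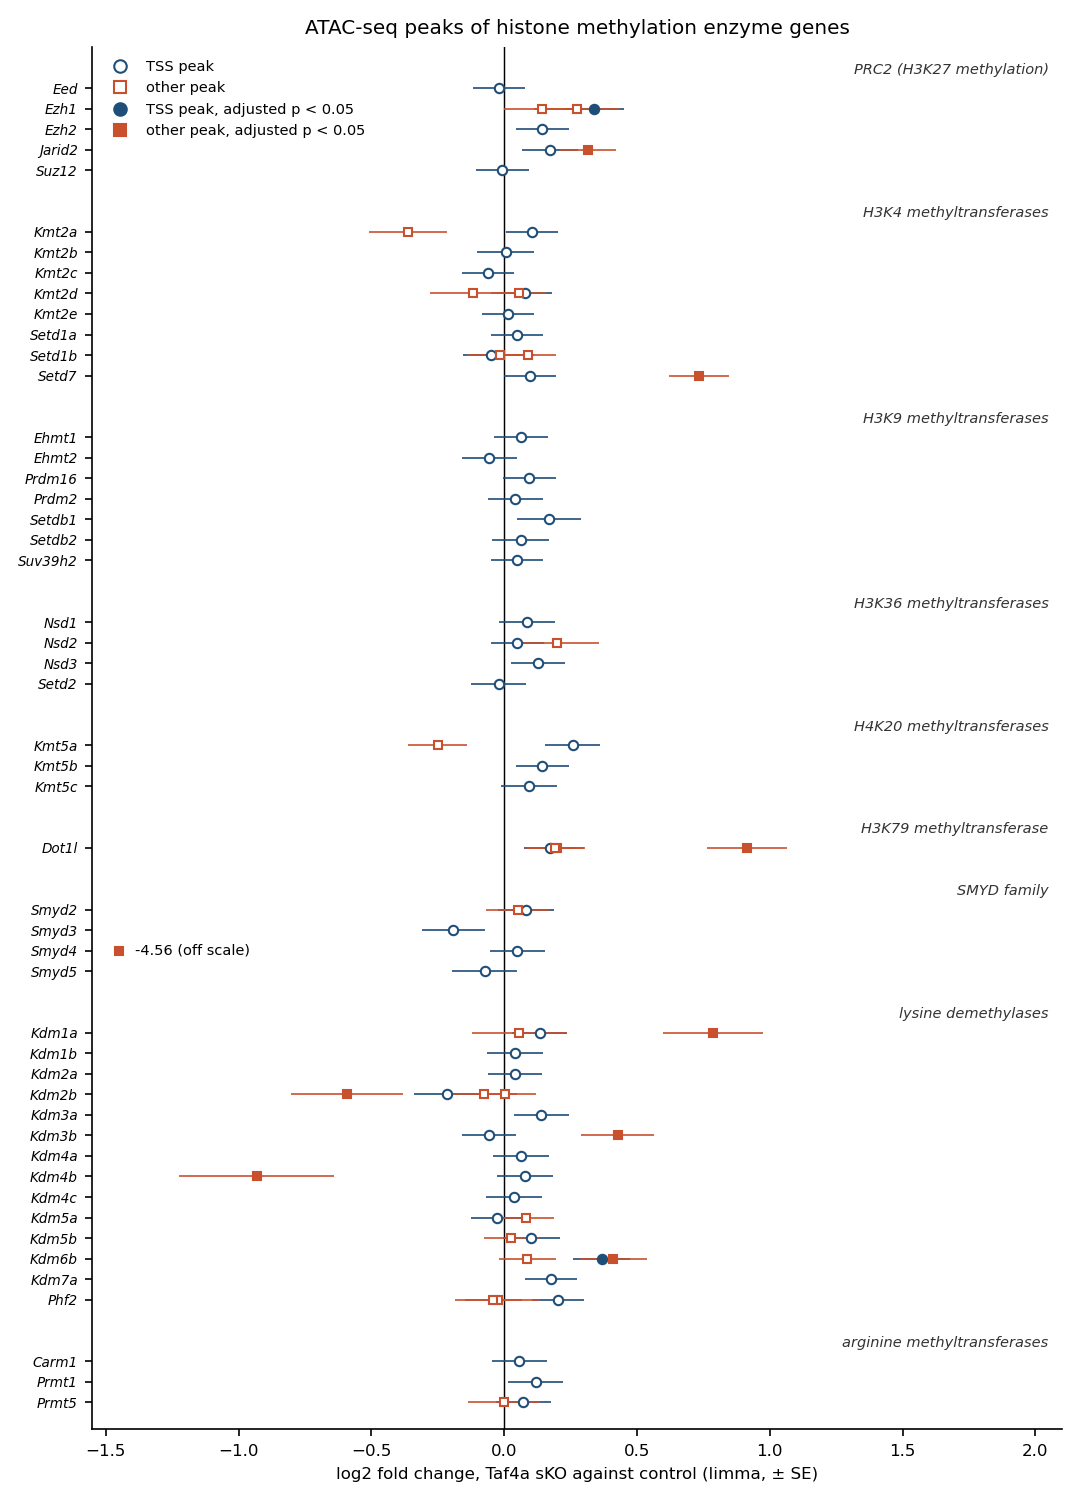
Limma log2 fold change (Taf4a sKO against control, ± SE) of the 79 peaks of 49 histone methylation enzyme genes, grouped by enzyme class, with circles for TSS peaks, squares for other peaks and filled symbols for adjusted p under 0.05. The TSS peaks lie close to 0 with 2 filled circles, while 9 squares are filled and the Smyd4 square, at -4.56, is drawn at the left edge. With TMM scaling 3 TSS peaks were called higher and 11 lower, where 15.8% of the TSS peaks of all genes were called higher and 23.9% lower.

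Calls at the TSS peaks depended on the scale. With TMM scaling, 3 member TSS peaks were called higher and 11 lower, while over all genes 15.8% were called higher and 23.9% lower. The 3 were Ezh1, Kdm6b and Kmt5a, and the 11 were Eed, Suz12, Kmt2c, Kmt2e, Setd1b, Ehmt2, Setd2, Smyd3, Kdm2b, Kdm3b and Kdm5a. Among the 11, Kdm2b had the lowest log2 fold change on the TMM scale (-0.33). Without control replicate 3, a library with a high total, 13 member TSS peaks were called higher, and so were 30.9% of all TSS peaks.

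**Figure D2:**
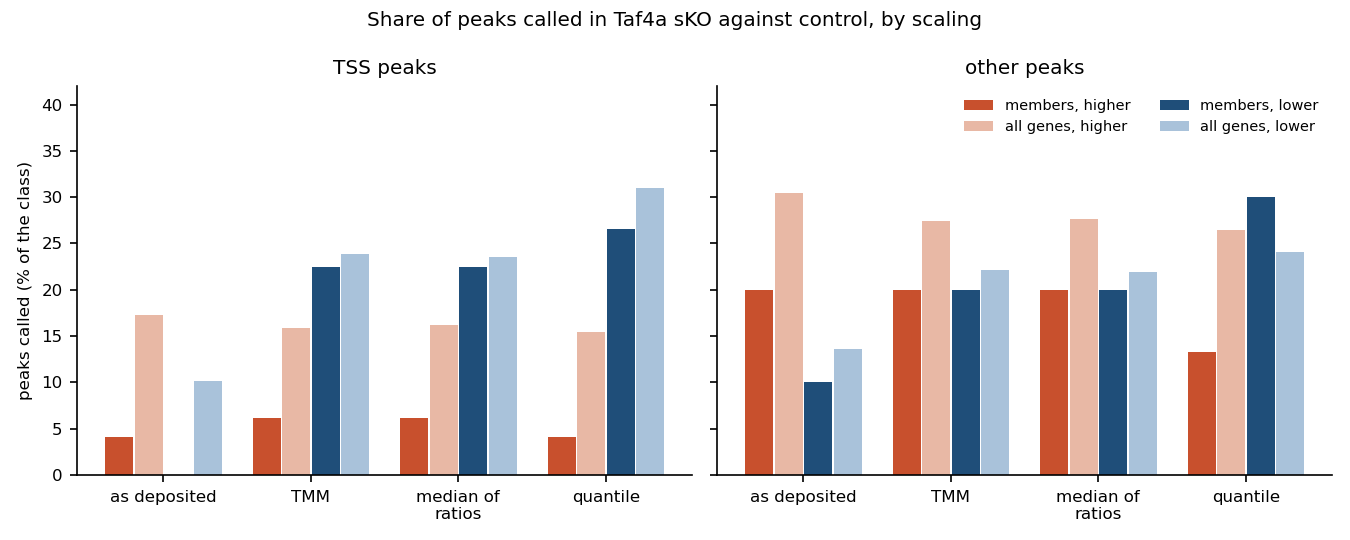
Percent of TSS peaks (left) and other peaks (right) called higher or lower in Taf4a sKO, for the methylation enzyme genes (dark bars) and for all genes (light bars), on the deposited scale and after 3 rescalings of the libraries. On the deposited scale 4.08% of the member TSS peaks were higher and 0% lower, and after TMM scaling 6.12% were higher and 22.4% lower, so the balance of higher and lower calls depends on the scaling, while Ezh1 and Kdm6b were called higher on both scales.

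PRC2 writes H3K27 methylation through its catalytic subunits Ezh1 and Ezh2, held together by Eed and Suz12, with Jarid2 as an accessory subunit. The Ezh1 TSS peak (chr11:101225871-101226673, centred in an intron 191 bp downstream of the start) had 585, 596 and 642 normalized counts in the controls and 799, 739 and 766 in Taf4a sKO. The groups did not overlap, and the peak was 1.26-fold higher (log2 fold change 0.34, SE 0.11, adjusted p = 0.020), or 0.27 above the median of all TSS peaks on the log2 scale. The call was lost without control replicate 1 (adjusted p = 0.090), sKO replicate 1 (0.085) or sKO replicate 3 (0.081) and with quantile normalization (0.22). The 2 peaks upstream of Ezh1, at 4191 and 5614 bp, did not pass the test, with log2 fold changes of 0.14 and 0.27 (SE 0.14 and 0.16).

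Ezh2, the enzyme of dividing cells, had 3168, 2998 and 3459 normalized counts at its TSS peak in the controls and 3700, 3457 and 3468 in sKO (log2 fold change 0.14, SE 0.10, adjusted p = 0.25). Control replicate 3 reached into the sKO range. Eed (log2 fold change -0.02) and Suz12 (-0.01) were level on the deposited scale, each with an SE of 0.10 or less, and were called lower on the TMM scale (-0.14 and -0.12, adjusted p = 0.024 and 0.032). The second peak of Jarid2, in an intron 4295 bp downstream of the start, had 2228, 2112 and 2562 counts in the controls and 3153, 2758 and 2671 in sKO. All 3 sKO libraries lay above the controls, with a log2 fold change of 0.32 (SE 0.11, adjusted p = 0.019), or 0.19 above the median of all other peaks. That call was lost without control replicate 1 (adjusted p = 0.083), control replicate 2 (0.060) or sKO replicate 1 (0.14). Its own TSS peak had a log2 fold change of 0.17 (SE 0.10, adjusted p = 0.19).

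Of the 8 genes that encode H3K4 methyltransferases, the MLL family members Kmt2a to Kmt2e, Setd1a, Setd1b and the monomethyltransferase Setd7, none passed the test at the TSS peak (0 also at an unadjusted p under 0.05). Their TSS log2 fold changes ran from -0.06 in Kmt2c to 0.11 in Kmt2a. Of their 6 other peaks, 1 rose and none fell, where 30.4% of the other peaks of all genes were called higher and 13.6% lower. This was an intron peak of Setd7, 7364 bp downstream of the start, whose values were 518, 514 and 537 in the controls and 816, 896 and 901 in sKO. Its groups were far apart, and it was 1.66-fold higher (log2 fold change 0.73, SE 0.11, adjusted p = 2.0e-05), 0.61 above the median of all other peaks. The Setd7 TSS peak had a log2 fold change of 0.10 (SE 0.10, adjusted p = 0.47). The Kmt2a peak 1458 bp upstream, within an intron of AC061963.1, read 275, 263 and 278 in the controls and 244, 193 and 200 in sKO, and missed the threshold (log2 fold change -0.36, SE 0.15, adjusted p = 0.0503), but was called lower on the TMM scale (-0.48, adjusted p = 0.0059).

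The 7 H3K9 methyltransferase genes each had a single peak, and none passed the test (0 also at an unadjusted p under 0.05). Suv39h2, which trimethylates H3K9 in heterochromatin, had 2063, 2029 and 2279 normalized counts in the controls and 2188, 2234 and 2155 in sKO (log2 fold change 0.05, SE 0.10, adjusted p = 0.73). Its sKO values lay within the control range. Setdb1, which trimethylates H3K9 at sites bound by KRAB zinc finger proteins, had the highest log2 fold change of the group (0.17, SE 0.12, adjusted p = 0.27), with 482, 488 and 508 counts in the controls and 530, 560 and 574 in sKO. Ehmt2, the H3K9 dimethyltransferase G9a, had the lowest (-0.06, SE 0.10, adjusted p = 0.70), and was called lower on the TMM scale (-0.17, adjusted p = 0.014). The PR domain gene Prdm16 was the other one whose groups did not overlap, at 1370, 1299 and 1341 against 1415, 1406 and 1461.

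Among the 4 H3K36 methyltransferase genes, Setd2, which writes trimethylation, had the lowest TSS log2 fold change (-0.02) and Nsd3, which writes dimethylation, the highest (0.13, SE 0.10, adjusted p = 0.34). Of the 3 H4K20 methyltransferase genes, Kmt5a, which writes the monomethyl mark, had the highest (0.26, SE 0.10, adjusted p = 0.051). Kmt5b and Kmt5c, which extend it to di- and trimethylation, had 0.14 and 0.09 (adjusted p = 0.26 and 0.51). Kmt5b read 2854, 2576 and 3112 in the controls and 3215, 3111 and 3088 in sKO, and control replicate 3 stood within the sKO values. The Kmt5a TSS peak read 1817, 1723 and 2135 in the controls and 2323, 2199 and 2235 in sKO, while its second peak, 6075 bp downstream and 221 bp from another annotated transcript start, read 1510, 1531 and 1952 against 1429, 1369 and 1369. The 2 Kmt5a peaks thus stood apart in opposite directions, with no overlap between the groups at either, and neither passed the test by itself (second peak -0.25, SE 0.11, adjusted p = 0.073). On the TMM scale both were called, the TSS peak higher (0.14, adjusted p = 0.021) and the second peak lower (-0.37, adjusted p = 0.00023).

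Dot1l, the H3K79 methyltransferase, was with Kdm2b one of 2 genes with 4 peaks. Its TSS peak (log2 fold change 0.17, adjusted p = 0.18) and the peaks 3218 bp upstream (0.19, adjusted p = 0.17) and 2448 bp downstream (0.20, adjusted p = 0.13) did not pass the test. The fourth peak, in an intron 3685 bp downstream (chr10:80758625-80759157), had 354, 429 and 583 normalized counts in the controls and 840, 777 and 908 in sKO. Every sKO library exceeded the highest control, and the peak was 1.88-fold higher (log2 fold change 0.91, SE 0.15, adjusted p = 8.4e-05). It was called under each of the 16 other settings tried.

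The SMYD genes encode SET and MYND domain methyltransferases several of which are known from heart and skeletal muscle. Smyd2, Smyd3, Smyd4 and Smyd5 had a TSS peak, and none of the 4 passed the test (0 also at an unadjusted p under 0.05). Smyd5, which methylates H4K20, read 521, 525 and 631 in the controls and 529, 523 and 535 in sKO (log2 fold change -0.07, SE 0.12, adjusted p = 0.67). Smyd3 read 665, 616 and 762 against 586, 614 and 583, the TSS peak whose sKO values lay below the controls (log2 fold change -0.19, SE 0.12, adjusted p = 0.22), and it fell on the TMM scale (-0.31, adjusted p = 0.0061). Smyd2 had the highest TSS log2 fold change of the 4 (0.08).

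The largest change of the 79 peaks was in Smyd4. An intron peak 4200 bp downstream of the start (chr11:75352339-75352927) had 504, 509 and 753 normalized counts in the controls and 19, 22 and 31 in Taf4a sKO. The sKO mean was 4.08% of the control mean, and the peak fell by 4.56 on the log2 scale (SE 0.20, 95% confidence interval -4.99 to -4.14, adjusted p = 5.8e-12), and the call held under each of the 16 other settings tried. It was the lowest log2 fold change of the 13874 other peaks tested and the third lowest of all 75384 peaks. The Smyd4 TSS peak did not follow it: it read 1639, 1468 and 1754 in the controls and 1754, 1627 and 1641 in sKO (log2 fold change 0.05, SE 0.10, adjusted p = 0.73). Of the 13 further peaks within 100000 bp, 2 rose and 3 fell, with log2 fold changes between -0.78 and 0.70.

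**Figure D3:**
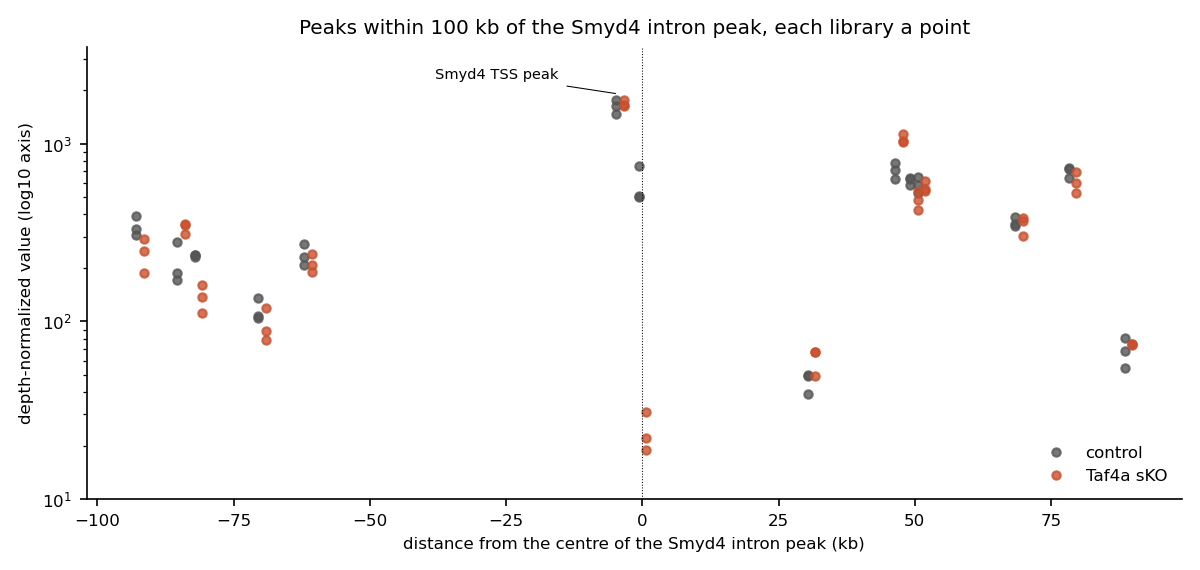
Normalized counts (log10 axis) of each control library (grey) and each Taf4a sKO library (orange) at the 14 peaks within 100 kb of the Smyd4 intron peak, by distance from its centre. At 0 the controls stand at 504 to 753 and the sKO libraries at 19 to 31, while at the other 13 peaks the groups lie within a log2 fold change of -0.78 to 0.70 of each other.

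The table assigned no peak to Smyd1, and its nearest peaks were looked up after the values of the other genes had been seen. A peak 1896 bp from the Smyd1 start (chr6:71323842-71324417), which the table assigned to the neighbouring gene Cd8b as its TSS peak, had 232, 244 and 278 normalized counts in the controls and 22, 32 and 12 in sKO. It fell by 3.55 on the log2 scale (SE 0.27, adjusted p = 2.7e-08). The next nearest, 42551 bp away and assigned to Krcc1, read 39, 57 and 62 against 114, 123 and 117 and rose (log2 fold change 1.18, SE 0.21, adjusted p = 9.3e-05).

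The 14 demethylase genes comprise the flavin-dependent enzymes Kdm1a (LSD1) and Kdm1b and the Jumonji enzymes. One TSS peak rose and 0 fell (7.14% and 0% of the 14, against 17.3% and 10.1% over all genes), and of 13 other peaks 3 rose and 2 fell (23.1% and 15.4%, against 30.4% and 13.6%). The called TSS peak was that of Kdm6b, an H3K27 demethylase, and lay 3296 bp inside the gene. It had the highest counts of the 49, at 8147, 7136 and 9565 normalized counts in the controls and 11399, 10270 and 10190 in sKO. The 3 sKO libraries lay above the controls, with a log2 fold change of 0.37 (SE 0.11, adjusted p = 0.0077), 0.30 above the median of all TSS peaks. Without sKO replicate 1 the call was lost (0.31, adjusted p = 0.052).

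A peak 6511 bp upstream of Kdm6b moved the same way, from 442, 392 and 435 to 612, 571 and 508 (log2 fold change 0.41, SE 0.13, adjusted p = 0.012). It lost its call without control replicate 2 (adjusted p = 0.055) or sKO replicate 1 (0.070) and with quantile normalization (0.14). The strong peak between them, 4792 bp upstream, did not pass the test (0.09, adjusted p = 0.55). Kdm1a, which removes H3K4 mono- and dimethylation, had an intron peak 4028 bp downstream with 86, 111 and 156 counts in the controls and 189, 207 and 197 in sKO. The groups did not overlap, and it was 1.72-fold higher (log2 fold change 0.78, SE 0.19, adjusted p = 0.0019). Its TSS peak had a log2 fold change of 0.13 (SE 0.10, adjusted p = 0.32).

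Kdm3b, an H3K9 demethylase, had an intron peak 2477 bp downstream that read 260, 270 and 314 in the controls and 362, 385 and 386 in sKO (log2 fold change 0.43, SE 0.14, adjusted p = 0.014). The call was lost without control replicate 1 (adjusted p = 0.069), control replicate 2 (0.054), sKO replicate 2 (0.0503) or sKO replicate 3 (0.065) and with quantile normalization (0.088). The peaks that fell belonged to Kdm4b, which removes H3K9 and H3K36 methylation, and Kdm2b, the H3K36 demethylase of a variant Polycomb complex. The Kdm4b peak, in an intron 5429 bp downstream, was small, at 65, 72 and 75 counts in the controls and 61, 22 and 36 in sKO (log2 fold change -0.93, SE 0.29, adjusted p = 0.014). Replicate 1 of the sKO group came close to the lowest control, and the call was lost without control replicate 2 (adjusted p = 0.074) or sKO replicate 2 (0.087).

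The Kdm2b peak lay 8185 bp upstream, over an exon of A930024E05Rik or Gm44574. It read 108, 106 and 79 in the controls and 78, 63 and 53 in sKO (log2 fold change -0.59, SE 0.21, adjusted p = 0.027). Its groups were separated by 1 count, and the call was lost without control replicate 1 (adjusted p = 0.089), control replicate 2 (0.12), sKO replicate 2 (0.053) or sKO replicate 3 (0.14). The Kdm2b TSS peak had the lowest log2 fold change among the 49 (-0.22, SE 0.12, adjusted p = 0.17), with 646, 568 and 660 counts in the controls and 525, 592 and 497 in sKO. The 3 arginine methyltransferase genes had strong TSS peaks that did not pass the test, also unadjusted. Prmt1, the main asymmetric arginine methyltransferase, had the highest log2 fold change of them (0.12, SE 0.10) and Carm1, which methylates H3 at arginines and also Pax7, the lowest (0.06, SE 0.10).

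Over the 30 other peaks, 6 rose, 3 fell and 21 did not pass the test, where 30.4% of the other peaks of all genes were called higher and 13.6% lower. The median log2 fold change was 0.06, against 0.13 over the other peaks of all genes. The 6 belonged to Dot1l, Kdm1a, Setd7, Kdm3b, Kdm6b and Jarid2, and the 3 to Smyd4, Kdm4b and Kdm2b. Relative to the median of the other peaks of all genes, their log2 changes were 0.78 in Dot1l, 0.66 in Kdm1a, 0.61 in Setd7, 0.30 in Kdm3b, 0.28 in Kdm6b and 0.19 in Jarid2, and -0.72 in Kdm2b, -1.06 in Kdm4b and -4.69 in Smyd4. On the TMM scale these 9 peaks kept their calls, 3 more, of Kmt2a, Kmt5a and Phf2, were called lower (6 higher and 6 lower in all), and over all genes 27.5% were called higher and 22.2% lower. The groups did not overlap at 12 of the 30, with sKO above at 7 and below at 5, against 34.5% and 18.2% of the other peaks of all genes. With a threshold of a 2-fold ratio of means, no member peak was gained and 1, that of Smyd4, was lost. By that threshold 3.53% of the TSS peaks of all genes were gained and 3.23% lost, and 6.87% of the other peaks were gained and 4.55% lost.

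**Figure D4:**
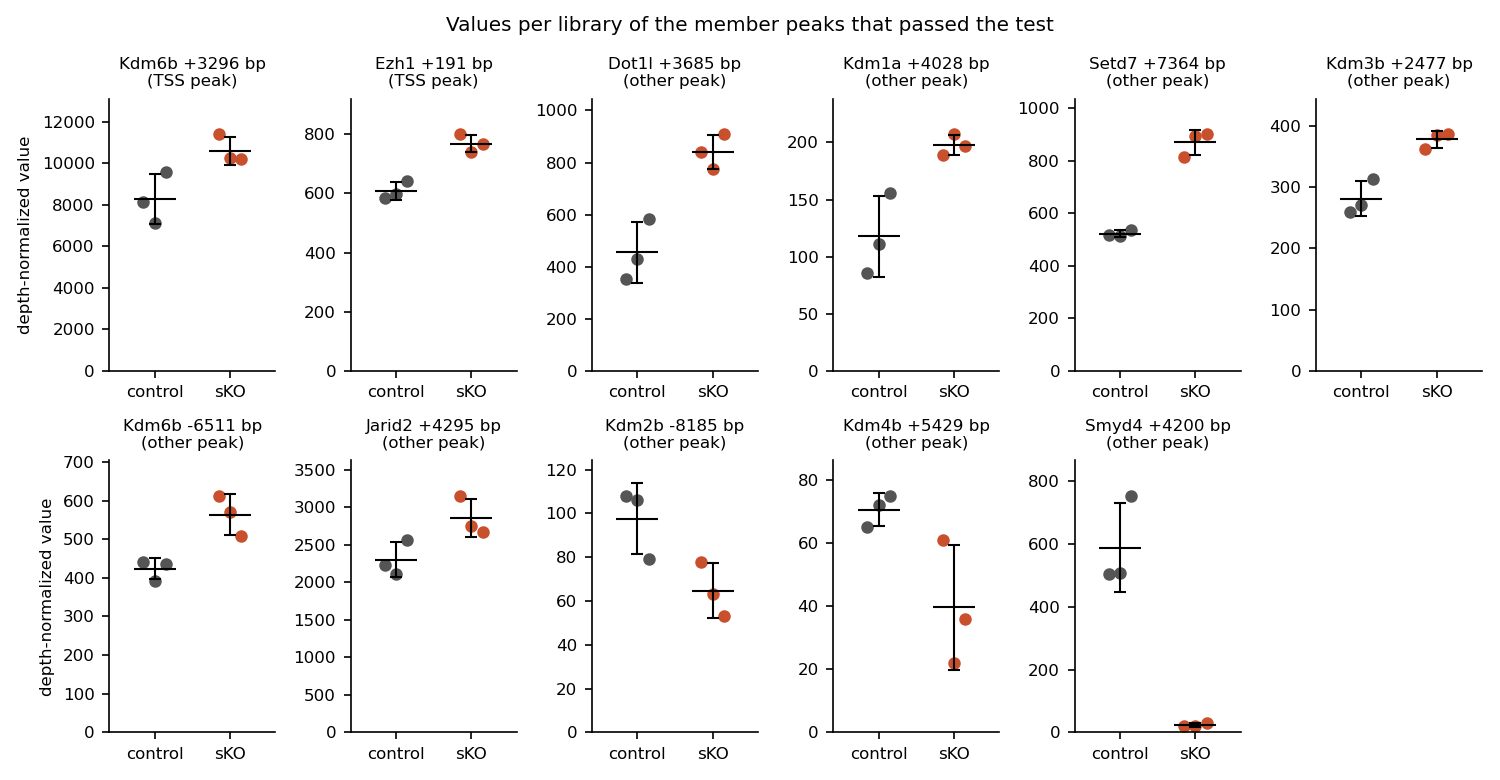
Normalized counts (linear axes from 0) of the 11 member peaks with adjusted p under 0.05, with a point per library and bars for mean ± SD (n = 3 per group). The Smyd4 panel shows the controls at 504 to 753 and sKO at 19 to 31, and the Kdm4b and Kdm2b panels show sKO libraries close to the lowest control.

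The sequences of 5 of these other peaks are shown because these 5 peaks carry the largest log2 fold changes among the members on the deposited scale. Relative to the median of the other peaks of all genes, the Kdm2b peak (-0.72) had a larger change than those of Kdm1a (0.66) and Setd7 (0.61). They are the central 300 bases of each peak, or the whole peak where it is shorter, on the plus strand of GRCm38.p6 (mm10), and hold no annotated exon. Capitals mark 4 short motifs, searched on both strands. The AP-1 search used TGANTCA, where N is any base. For the E-box, the letters CAGCTG were used. The third was the CCAAT box. As above, the GC box was GGGCGG.
Smyd4 chr11:75352483-75352782: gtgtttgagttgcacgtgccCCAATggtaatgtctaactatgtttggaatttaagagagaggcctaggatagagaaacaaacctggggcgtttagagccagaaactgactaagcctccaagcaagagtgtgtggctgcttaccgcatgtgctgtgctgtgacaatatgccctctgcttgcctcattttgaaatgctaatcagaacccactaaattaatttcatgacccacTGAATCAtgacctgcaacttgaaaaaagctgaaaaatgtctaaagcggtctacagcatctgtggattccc
Dot1l chr10:80758741-80759040: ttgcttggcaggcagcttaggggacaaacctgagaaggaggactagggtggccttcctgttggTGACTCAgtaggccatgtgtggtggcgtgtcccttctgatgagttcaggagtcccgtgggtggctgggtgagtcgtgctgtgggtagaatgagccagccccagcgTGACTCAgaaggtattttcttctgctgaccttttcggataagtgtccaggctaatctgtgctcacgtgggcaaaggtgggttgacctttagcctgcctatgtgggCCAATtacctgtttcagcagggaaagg
Setd7 chr3:51553364-51553663: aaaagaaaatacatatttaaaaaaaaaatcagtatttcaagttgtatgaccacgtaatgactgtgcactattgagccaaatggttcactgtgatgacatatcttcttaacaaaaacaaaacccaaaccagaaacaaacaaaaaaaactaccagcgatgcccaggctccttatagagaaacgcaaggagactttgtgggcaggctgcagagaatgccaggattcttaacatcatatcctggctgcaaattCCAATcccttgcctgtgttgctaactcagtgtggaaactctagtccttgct
Kdm1a chr4:136598556-136598833: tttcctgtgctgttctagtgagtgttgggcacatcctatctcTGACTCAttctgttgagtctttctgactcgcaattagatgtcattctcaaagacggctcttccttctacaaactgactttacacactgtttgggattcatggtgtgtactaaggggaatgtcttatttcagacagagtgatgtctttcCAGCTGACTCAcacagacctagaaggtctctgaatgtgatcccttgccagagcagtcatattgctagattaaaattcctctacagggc
Kdm4b chr17:56331406-56331575: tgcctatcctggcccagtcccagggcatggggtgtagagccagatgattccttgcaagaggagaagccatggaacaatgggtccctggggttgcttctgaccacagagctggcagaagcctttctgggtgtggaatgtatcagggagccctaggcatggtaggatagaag
The Smyd4 window holds 1 CCAAT and 1 AP-1 motif, the Dot1l window 2 AP-1 and 1 CCAAT, the Kdm1a window 2 AP-1 and 1 E-box (which overlaps the second AP-1 motif), the Setd7 window 1 CCAAT, and the Kdm4b window none of the 4. The AP-1 match reads TGAATCA in the Smyd4 window and TGACTCA in the Dot1l and Kdm1a windows. Of the Kdm1a peak, 54.3% is soft-masked as repeat. The 300 bases around each peak's centre, which run past the ends of shorter peaks, were searched for all other peaks. They held AP-1 in 23.8%, the E-box in 31.0%, CCAAT in 31.5% and the GC box in 16.0%. Around the members' 30 other peaks they held them in 6, 5, 9 and 7 cases, in that order. The E-box count includes Kdm4b, where the match lies outside the 170 bases shown. These are letter matches and not sites.

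For the 20 members with both classes of peak, the mean log2 value of the other peaks was set against the TSS peak of the same library, so that a common scaling of a library cancels. Other peaks rose against the TSS peak in 2 genes and fell in 4, with limma fitted on 8745 genes, where 19.3% were called higher and 18.3% lower. The median of this difference was -0.05 over the 20 members and 0.00 over all genes. The largest falls were in Smyd4 (-4.61 on the log2 scale, SE 0.22, adjusted p = 0.00014) and Kdm4b (-1.01, SE 0.32, adjusted p = 0.041). Kmt5a, whose peaks did not pass alone, fell by 0.51 (SE 0.10, adjusted p = 0.0065), and the log2 ratio of its second peak to its TSS peak was -0.27, -0.17 and -0.13 in the controls and -0.70, -0.68 and -0.71 in sKO. This ratio was tight in both groups and did not overlap between them.

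Kmt2a fell by 0.47 in the same comparison (SE 0.13, adjusted p = 0.026), and Setd7 and Kdm3b rose by 0.64 (SE 0.10, adjusted p = 0.0037) and 0.48 (SE 0.10, adjusted p = 0.0077). The Kmt2a call was lost without control replicate 1 (adjusted p = 0.062), control replicate 2 (0.086), sKO replicate 2 (0.081) or sKO replicate 3 (0.080). The Kdm4b call was lost without control replicate 1, 2 or 3 (adjusted p = 0.077, 0.12 and 0.076) or sKO replicate 2 or 3 (0.074 and 0.083), and with quantile normalization (0.055). Dot1l and Kdm1a, each with 1 called peak among several, did not pass over the mean of their other peaks (0.26 and 0.29, adjusted p = 0.095 and 0.092).

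**Figure D5:**
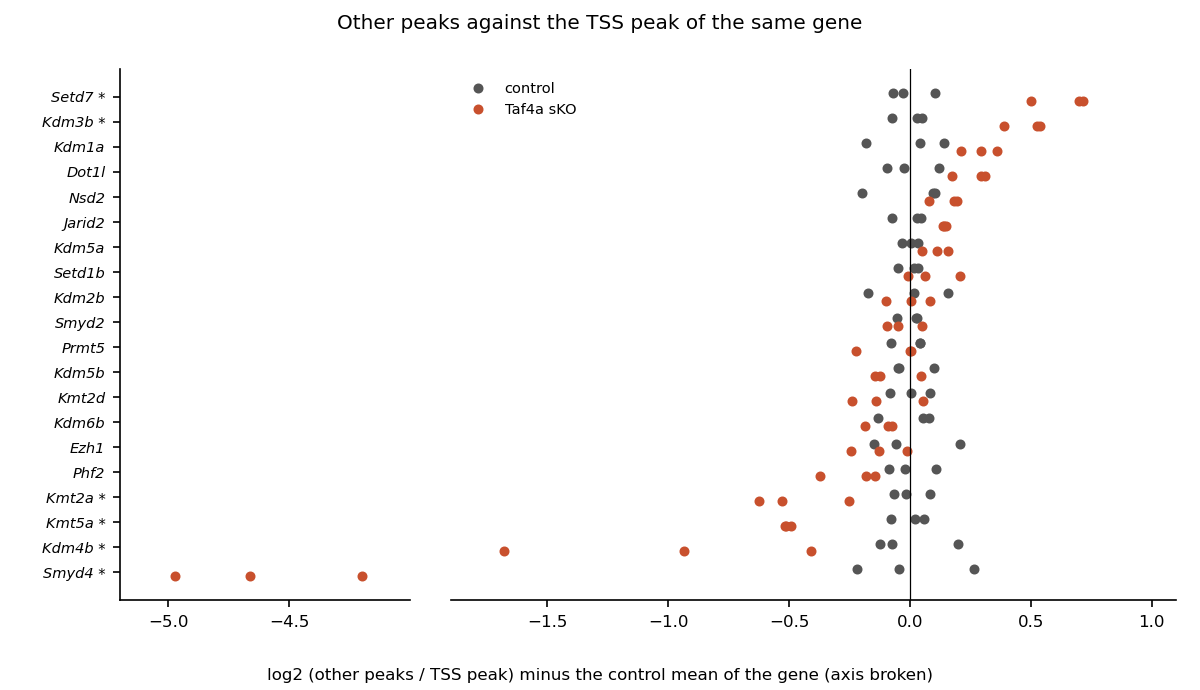
Log2 ratio of the other peaks to the TSS peak in each library, minus the control mean of the gene, for the 20 genes with both classes of peak (axis broken between -4 and -1.9). Asterisks mark the 6 genes with adjusted p under 0.05, of which Setd7 and Kdm3b lie to the right and Kmt2a, Kmt5a, Kdm4b and Smyd4 to the left of their controls.

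Peaks with no assigned gene also lay inside these genes, beyond the 10000 bp used for the assignment. They were counted after the other values had been seen. There were 84 in 22 genes, of which 23 rose and 20 fell, where 32.9% of all peaks without a gene were called higher and 16.0% lower. Prdm16, a long gene with 12 such peaks, had 8 that rose and 1 that fell, while its TSS peak did not pass the test (log2 fold change 0.09, SE 0.10). Smyd3 had 14, with 3 that rose and 5 that fell. The lowest of these was a small Kdm4b peak 47698 bp from the start, with 26, 26 and 33 normalized counts in the controls and 6, 4 and 9 in sKO (log2 fold change -2.05, SE 0.42). A Jarid2 intron peak 41646 bp from the start rose from 211, 235 and 248 to 434, 459 and 511 (log2 fold change 1.01, SE 0.14).

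The wider pathway was given by 95 further genes for other methylation enzymes, subunits of the complexes and methyl-lysine readers, of which 84 had peaks, 124 in all. Of their 84 TSS peaks 3 rose and 3 fell, and of their 40 other peaks 4 rose and 4 fell. These are 3.57% each way of the TSS peaks, against 17.3% higher and 10.1% lower over all genes, and 10% each way of the other peaks, against 30.4% and 13.6%. Among the called peaks, the 3 largest rises were in Cbx7, a Polycomb reader of H3K27 trimethylation (log2 fold change 1.49, SE 0.16, adjusted p = 6.8e-07), Aebp2, a PRC2 accessory subunit, at a peak 1358 bp upstream (0.76, SE 0.12, adjusted p = 4.6e-05), and Mecom, a PR domain factor (0.63, SE 0.19, adjusted p = 0.0091). The nearest peak of Cbx7 lay 9693 bp inside the gene and read 329, 358 and 267 in the controls and 1059, 684 and 969 in sKO. The 3 largest falls were in Prmt8, an arginine methyltransferase best known from brain (-2.0, SE 0.24, adjusted p = 8.5e-07), Atf7ip, a partner of Setdb1 (-1.03, SE 0.17, adjusted p = 4.1e-05), and L3mbtl1, a reader of H4K20 methylation (-0.81, SE 0.17, adjusted p = 0.00049). Prmt8 read 124, 86 and 103 in the controls and 22, 23 and 31 in sKO, and the Atf7ip peak 463, 371 and 288 against 178, 160 and 204.

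Marker genes were checked for the cells in the sort. All 10 MuSC markers had a TSS peak within 1000 bp, and their summed normalized counts were 18498, 15568 and 19281 in the controls and 17907, 17130 and 16952 in sKO. Pax7 had the highest normalized count, while per kilobase of peak Cdh15 (2332) and Heyl (2088) exceeded Pax7 (1761). Among these TSS peaks that of Pax7 fell (log2 fold change -0.32, adjusted p = 0.030) and that of Vcam1 rose (0.35, adjusted p = 0.018). Of the 6 other peaks of Pax7 4 rose and 0 fell, with log2 fold changes of the 4 from 0.43 to 1.00. Over all genes 30.4% of other peaks were called higher and 13.6% lower. Other peaks of the remaining MuSC markers went both ways. Calls lower were Calcr (-1.01, adjusted p = 0.0024), Cxcr4 (-0.57, adjusted p = 0.0018) and Itga7 (-0.45, adjusted p = 0.025). Calls higher were Cdh15, at 5548 bp downstream (1.64, adjusted p = 2.5e-09) and at 3928 bp (0.34, adjusted p = 0.025), and Sdc4 (0.66, adjusted p = 0.0020). Myf5 (0.54, adjusted p = 0.0033) and further peaks of Cxcr4 (0.45, adjusted p = 0.0085) and Itga7 (0.45, adjusted p = 0.0017) were called higher too. Of 5 markers of fibro-adipogenic cells 4 had a peak, with none for Ly6a, and the sum of their TSS peaks, led by Col15a1, was 1108, 1084 and 1159 against 1674, 1530 and 1548. Of these 4 TSS peaks, those of Lum (2.49-fold, adjusted p = 6.9e-06), Dcn (1.78-fold, adjusted p = 0.00032) and Col15a1 (1.35-fold, adjusted p = 0.0017) rose, and the small nearest peak of Pdgfra, 2177 bp upstream with 56, 45 and 48 counts against 35, 23 and 35, fell (log2 fold change -0.68, adjusted p = 0.044). None of the 4 other Pdgfra peaks passed the test, and at 2 of them the sKO values lay above the controls (log2 fold changes 0.31 and 0.33, adjusted p = 0.058 and 0.053). Of the other peaks of Col15a1, one 2177 bp upstream fell (-0.73, adjusted p = 0.0014), and both other peaks of Dcn rose (1.32 and 0.60). Of 5 endothelial markers 4 had a peak, with none for Emcn, and the sum, led by Tek, was 1514, 1312 and 1845 against 1993, 1992 and 1888. The Tek TSS peak rose (log2 fold change 0.40, adjusted p = 0.010), and the TSS peaks of the other 3 did not pass the test. Of the 2 other peaks of Tek, 1 rose (0.90) and 1 fell (-1.69). Of 5 immune markers, Ptprc, Itgam and Cd3e had no peak, and the sum, led by Csf1r, was 393, 457 and 604 against 590, 528 and 636. The 2 with a peak went opposite ways, Csf1r higher (log2 fold change 0.90, adjusted p = 0.00010) and Cd68 lower (-0.84, adjusted p = 0.00037). Mature fibre markers, led by Myh1, summed to 2477, 2284 and 2805 against 2632, 2367 and 2397, and of these 5 TSS peaks that of Acta1 fell (log2 fold change -0.67, adjusted p = 0.00085). The part of other cells in the peaks above was not tested, and a change in the share of cells with an open site cannot be told apart here from a change in each cell.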

How the data were processed

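The authors trimmed ATAC-seq reads with Trimmomatic 0.39, aligned them to mm10 with STAR 2.7.11b, removed duplicate (Picard 3.1.1), spliced, multi-mapping, ribosomal and mitochondrial reads, called peaks per sample with MACS without an input, unified them and counted reads with featureCounts. A Tn5 shift is not described in the sources used here. The deposited values are scores: counts that the authors normalized for sequencing depth and rounded, so a count model was not fitted. Each peak within about 10000 bp of a gene start carries the nearest gene. The authors' contrasts used DESeq2 with size factors of one and a threshold of mean above 10 and log2 ratio past 1. The depth of each library is not in the table, and 3 libraries per group limit the precision.

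Here limma 3.58.1 (R 4.3.3, trend and robust moderation) was fitted on log2(value + 1) of the 75384 peaks with a mean above 10, Benjamini-Hochberg over all of them, two-sided. Fold changes are on that scale. The same fit was run on the per-library difference between other peaks and the TSS peak over 8745 genes. The procedure was tested on simulated data. Gene features came from GENCODE vM21 and GRCm38.p6. The members, lists and the rule for named genes (called members, within-gene calls, members with most peaks, extremes of each group, 8 listed genes and the 3 largest called pathway changes each way) were chosen with earlier results of these data known. Alternatives covered pseudocount, filter, scaling, moderation, replicate block and each replicate left out.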

Additional observations from a re-analysis of the deposited data

How the results depend on the processing

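The pseudocount, the filters on low values, limma without the robust option and limma voom left each count within 1.5 times its value. Scaling moved the counts of lower peaks: 11 TSS peaks and 6 other peaks were called lower with TMM and with median-of-ratios factors, and 13 and 9 with quantile normalization, against 0 and 3 on the deposited scale. Over all genes, 10.1% of TSS peaks and 13.6% of other peaks were lower on the deposited scale. These shares were 23.9% and 22.2% with TMM, 23.6% and 22.0% with median-of-ratios factors, and 31.0% and 24.1% with quantile normalization. With an adjusted p under 0.01, 1 TSS peak and 3 other peaks were higher and 1 other peak lower (over all genes 11.7% of TSS peaks and 22.8% of other peaks were higher and 9.25% of other peaks lower). Of the TSS peaks within 1000 bp of the start, 1 was higher at an adjusted p under 0.05. A 1.5-fold threshold gave 3 gained and 3 lost peaks of 79, all of them other peaks, against 20.1% gained and 10.9% lost over the other peaks of all genes. Over the TSS peaks of all genes 10.2% were gained and 7.26% lost, and over both classes 14.1% and 8.70%. Leaving out each library in turn gave 0 to 13 TSS peaks higher, 3 to 10 other peaks higher, 1 to 4 other peaks lower, 0 to 1 gained, 1 to 2 lost and 4 to 6 genes with other peaks changed against the TSS peak. The highest counts came without control replicate 3, and the cause was not tested. Over all genes the same fits gave 2705 to 6614 TSS peaks higher, 3247 to 5517 other peaks higher and 1515 to 1831 other peaks lower. They tested 21389 to 21397 TSS peaks and 13871 to 13876 other peaks. Without control replicate 3, 30.9% of all TSS peaks and 39.8% of all other peaks were higher, and 12.7% of all other peaks lower. No value of a named peak that had been called changed sign.

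Control and sKO libraries share replicate numbers in the labels. Same-numbered libraries did not deviate together (correlations of deviations 0.11, -0.12 and -0.03 over peaks), so the numbers were not taken as pairs. With the replicate number as a block, 2 TSS peaks were higher and 0 lower, 6 other peaks higher and 3 lower, and 4 genes changed within the gene in place of 6, with Kmt2a and Kdm4b past the threshold no longer (adjusted p = 0.051 and 0.068). Small peaks are limited by depth: the Kdm4b and Kdm2b peaks that fell had means under 100 normalized counts.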
